A study of Rattus norvegicus with 35 samples.

Results

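The 35 rat liver arrays of this study were ranked by how far the array maker's control probe sets for beta-actin differed between the 3′ and the 5′ end of the transcript, and the 10 arrays with the highest score were compared with the 10 with the lowest. The score was the log2 signal of the 3′ actin probe set minus that of the 5′ actin probe set, and the mean score of the array's own dose group was subtracted. The 20 arrays chosen in this way, of 35 in all, are called high actin arrays and low actin arrays below, and the other 15 middle arrays. The arrays were thus chosen by their actin values, so the actin probe sets themselves are described without a test.

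Every array held liver RNA of 1 male Harlan Sprague Dawley rat, 7 weeks old when dosing began. The rats received the brominated flame retardant BTBPE, 1,2-bis(2,4,6-tribromophenoxy)ethane, in corn oil, or corn oil alone as vehicle, by gavage at 5 ml/kg for 5 days. The dose groups were 680, 68, 6.88, 0.69 and 0.07 mg/kg and vehicle, with 6 rats each except for 5 at 68 mg/kg, and the left liver lobe was taken on the day after the last dose. RNA was accepted from an integrity number of 7.0 upwards, and 100 ng per sample was labelled for a 3′ expression array. The sources used here give neither the integrity number of each sample nor scan times or other batches, so high and low arrays could not be compared within batches. The labels call the samples replications, and p-values here measure the spread between these samples.

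On arrays of this kind, cDNA synthesis is primed at the poly(A) tail, so labelled fragments start at the 3′ end and become rarer towards the 5′ end. Short or broken templates and a shortened synthesis both leave fewer 5′ fragments, which is why the 3′ to 5′ ratios of actin, GAPDH and hexokinase are standard quality controls of such arrays. Liver is made up mostly of hepatocytes by mass. Kupffer cells, the resident macrophages, line the sinusoids together with fenestrated endothelium and produce complement C1q and scavenger receptors such as CD163. Beta-actin is present in all of these cells, and it is prominent in macrophages and endothelium.

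Scores of single arrays, before the dose group mean was subtracted, averaged 1.12 log2 units in the vehicle group, 1.18 at 0.07, 1.14 at 0.69, 1.23 at 6.88, 1.11 at 68 and 1.15 at 680 mg/kg. The high arrays comprised 2 from each group other than 68 mg/kg. The low arrays comprised 3 vehicle arrays, 2 each at 0.07, 0.69 and 6.88 mg/kg and 1 at 680 mg/kg. No array of the 68 mg/kg group fell in either class, so 5 dose groups contributed to the comparison. The deviation from the group mean was largest, at 0.14 log2 units, in replicate 2 at 6.88 mg/kg and most negative, at -0.13, in replicate 6 at 680 mg/kg. The last array inside the high class, replicate 4 at 680 mg/kg, deviated by 0.066, and the first outside it, replicate 1 at 68 mg/kg, by 0.041. On the other side, replicate 3 at 0.07 mg/kg was the last low array at -0.049, and replicate 5 at 0.07 mg/kg lay just outside at -0.045. The low class therefore has no clear edge among the arrays.

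**Figure D1:**
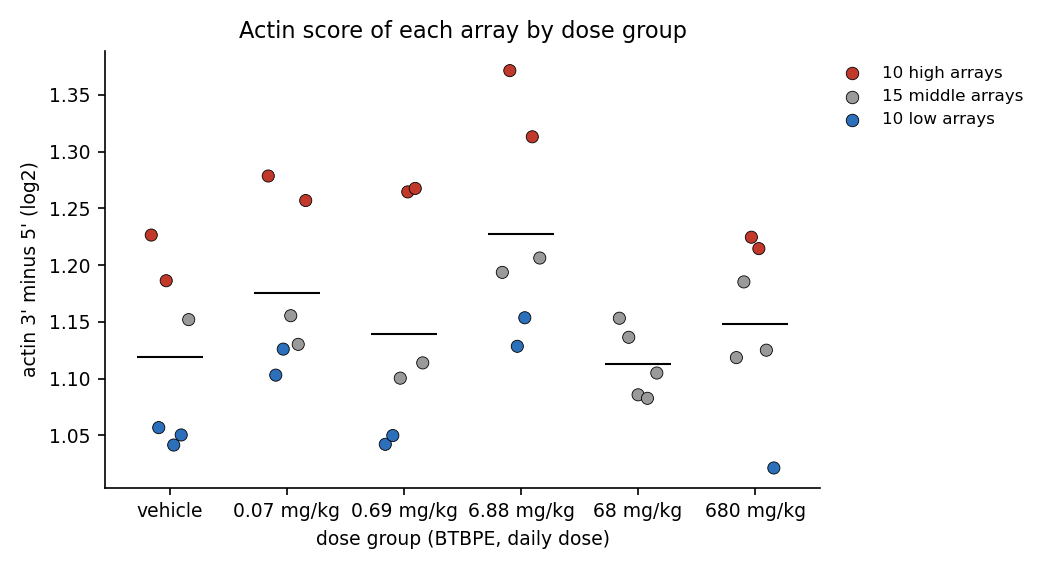
The actin 3′ minus 5′ difference (log2, vertical axis) of each of the 35 arrays is drawn by dose group, with a horizontal line at each group mean. The 10 high arrays and the 10 low arrays spread over 5 dose groups, and the 5 arrays at 68 mg/kg are all middle arrays.

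All levels below are deviations from the dose group mean with the mean over 35 arrays added back, on the log2 scale of the deposited RMA values, and are called dose-centred levels. The actin difference itself had a lowest, median and highest value of 1.22, 1.25 and 1.30 in high arrays, against 1.03, 1.08 and 1.11 in low arrays. The actin 5′ probe set averaged 10.42 ± 0.08 in high arrays and 10.73 ± 0.17 in low arrays (SD, n = 10 each). The middle probe set averaged 10.94 ± 0.08 in high arrays and 11.17 ± 0.16 in low arrays, and the 3′ probe set 11.67 ± 0.07 in high arrays and 11.80 ± 0.15 in low arrays. All 3 actin probe sets were thus dimmer in the high arrays, the 5′ one most. No other probe set on the array was assigned to Actb, so its level could not be read apart from these controls.

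GAPDH, a glycolytic enzyme whose control probe sets took no part in choosing the arrays, showed a difference between its 3′ and 5′ ends of the same direction. The GAPDH 3′ minus 5′ difference was 0.0027, 0.048 and 0.14 (lowest, median and highest) in high arrays, against -0.066, -0.014 and 0.023 in low arrays. The groups overlapped, but all 10 high arrays lay above the median of the low arrays, and the high arrays were higher in 5 of 5 dose groups. The means were 0.056 ± 0.038 in high arrays and -0.019 ± 0.028 in low arrays (SD, n = 10 each), a difference of 0.075 log2 units (two-sided permutation test, p = 6.0e-05, 0.0006 after Benjamini-Hochberg adjustment over 10 control pairs). GAPDH itself was at nearly the same level in both classes, with a mean of 11.91 in high and 11.87 in low arrays at the 3′ end and 11.85 in high and 11.89 in low arrays at the 5′ end. Each end alone thus differed between the classes by less than its SD, in opposite directions.

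The hexokinase pair did not pass the test. Its 3′ minus 5′ value averaged 1.51 ± 0.19 in high arrays and 1.45 ± 0.12 in low arrays (permutation test, adjusted p = 0.769). Its 3′ and 5′ probe sets, with means of 3.65 and 2.17 over all arrays, lay below the lowest array median of 4.71, so this pair was dim. Bacterial control RNAs, which are usually spiked into such samples, also have 3′ and 5′ probe sets. For the 4 polyadenylated spikes, which are usually added before labelling, the mean 3′ minus 5′ difference was higher in high arrays by 0.0054 for dap, 0.026 for lys, 0.15 for phe and 0.016 for thr, and none passed the permutation test, with phe the closest (p = 0.107, adjusted p = 0.537). The labelled hybridisation controls bioB, bioC, bioD and cre differed by 0.036, -0.022, 0.010 and -0.0064, and none of these passed either. Of the 10 control pairs, GAPDH alone passed the adjusted test.

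**Figure D2:**
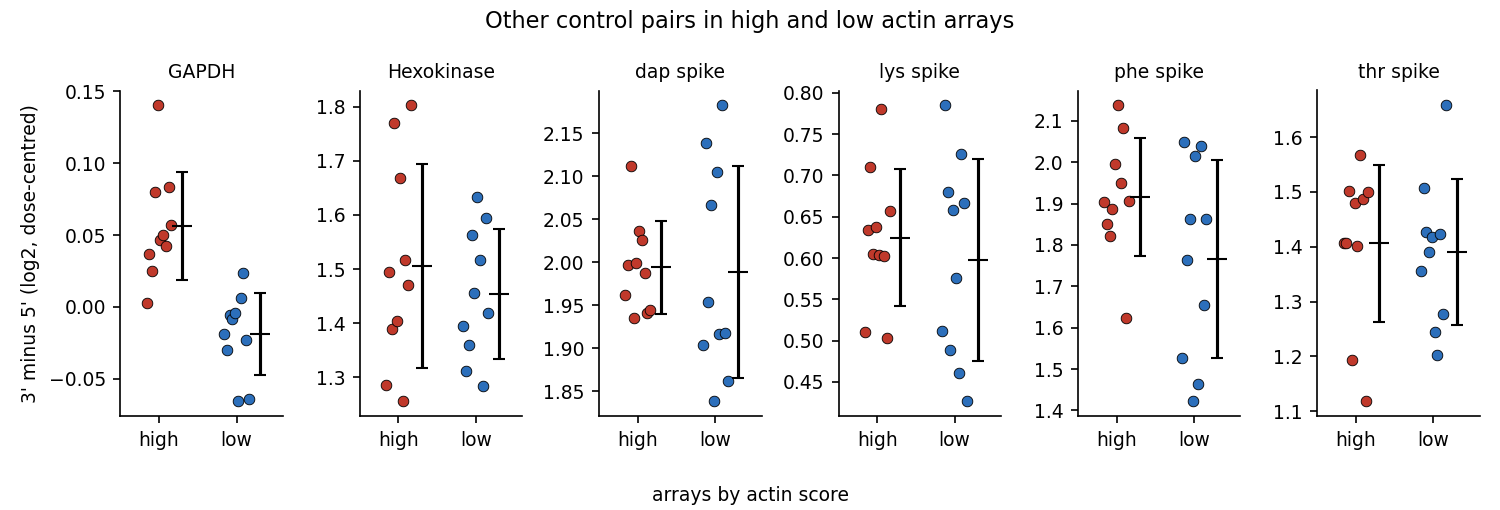
The 3′ minus 5′ difference (log2, dose-centred) of GAPDH, hexokinase and 4 spike-ins is drawn for each of the 10 high and 10 low actin arrays, with the mean and SD of each class beside the points. The GAPDH values of the high arrays, 0.0027 to 0.14, lie mostly above those of the low arrays. The hexokinase and spike values of the classes overlap more widely. Of the 10 high arrays, 9 lie above the low median for dap and for phe, 7 for thr, 6 for hexokinase and 5 for lys.

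Over all 35 arrays, the dose-centred GAPDH difference rose with the actin score with Pearson's r = 0.72 (permutation test, p adjusted over 3 relations 3.0e-05) and Spearman's rho = 0.65 (adjusted p = 9.0e-05). Without the 2 arrays farthest from the median score, r was 0.63 (n = 33). The same relation for hexokinase had r = 0.097 (adjusted p = 0.577). When classes were formed from the GAPDH difference instead, 8 of its 10 high arrays and 5 of its 10 low arrays were also high and low by actin, and none changed sides. The control probe set for 5S ribosomal RNA, a small RNA without a poly(A) tail, had levels of 7.26, 7.72 and 8.72 in high arrays, against 6.18, 6.95 and 8.20 in low arrays. All 10 high arrays were above the median of the low ones, although the ranges overlapped. Over 35 arrays its level rose with the score, with r = 0.43 (permutation test, adjusted p = 0.0152), rho = 0.36 (adjusted p = 0.0478) and r = 0.35 without the 2 farthest arrays (p = 0.0434).

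Across the 31042 probe sets that are not controls, the high arrays were compared with the low ones in a model that also held the dose groups, with limma's moderated test and Benjamini-Hochberg adjustment at 0.05. The test called 1 probe set higher (0.00322% of those tested) and 3 lower (0.00966%) in high arrays. They belonged to Rfc1, higher, and to Babam2, Tnfsf10 and C1qb, lower. At an unadjusted p under 0.05 there were 3192 probe sets (10.3%), of which 1576 were higher (5.08%) and 1616 lower (5.21%), against 1552 that such a threshold would pass if no probe set differed. The median difference over all probe sets was 0.0082 log2 units. With the score as a number over all 35 arrays, 15 probe sets rose (0.0483%) and 93 fell (0.3%) with the score, and all 4 genes above were among them.

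Rfc1, the large subunit of the clamp loader of DNA replication, had dose-centred levels of 7.45, 7.58 and 7.82 in high arrays, against 7.09, 7.19 and 7.42 in low arrays. The classes did not overlap, and the high arrays were 1.27-fold higher (95% interval 1.17 to 1.38, limma adjusted p = 0.0142). Its other 2 probe sets differed in the same direction, by 0.16 and 0.13 log2 units, and were not called. The called probe set was not the brightest of this gene. Babam2, a subunit of the BRISC and BRCA1-A deubiquitinase complexes, had levels of 6.58, 6.75 and 6.79 in high arrays, against 6.92, 7.01 and 7.21 in low arrays. These did not overlap either, and the fold was 0.803 (limma adjusted p = 0.0142). Its brighter probe set differed by only -0.08.

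Tnfsf10 encodes TRAIL, a ligand of death receptors found on immune cells. Its levels were 5.60, 6.15 and 6.32 in high arrays, against 6.45, 6.57 and 7.06 in low arrays, a fold of 0.662 without overlap (limma adjusted p = 0.0466). C1qb, the B chain of complement C1q and a product of macrophages, had levels of 8.15, 8.54 and 8.97 in high arrays, against 8.89, 9.08 and 9.33 in low arrays. Only the ends of its ranges overlapped, and the fold was 0.681 (95% interval 0.590 to 0.787, limma adjusted p = 0.0466). Each of the 4 genes differed in the same direction in 5 of 5 dose groups. These calls rest on few arrays. Without replicate 1 at 0.69 mg/kg or without replicate 4 at 6.88 mg/kg none of them passed, the Babam2 call was also lost without replicate 5 at 6.88 mg/kg, and the calls of Tnfsf10 and C1qb were lost in 12 and 13 of the 20 fits that left out 1 array. For both these were the fits without vehicle replicates 3 and 4, replicates 1, 2 and 6 at 0.07 mg/kg, replicates 1, 2 and 5 at 0.69 mg/kg, replicates 2, 4 and 5 at 6.88 mg/kg and replicate 3 at 680 mg/kg, and for C1qb also that without vehicle replicate 5. Over all 20 fits the limma adjusted p ran from 0.0039 to 0.0576 for Rfc1, from 0.0118 to 0.0576 for Babam2, from 0.0144 to 0.146 for Tnfsf10 and from 0.0118 to 0.146 for C1qb, and no sign changed.

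Dose-centred levels of high and low arrays did not overlap at all for 11 probe sets (0.0354% of those tested), 4 higher (0.0129%) and 7 lower (0.0226%). The 4 higher ones were Rfc1, Naa15, Xiap and, named here because of its values, Arhgap5. Xiap, an inhibitor of caspases, had levels of 8.11, 8.31 and 8.67 in high arrays, against 7.53, 7.94 and 8.07 in low arrays, and was 1.40-fold higher without passing the adjusted test (limma adjusted p = 0.113). Over the settings of the closing section the Xiap difference ran from 0.105 to 0.57 log2 units. Naa15, a subunit of the N-terminal acetyltransferase that works at the ribosome, was 1.22-fold higher, although 1 of its 4 other probe sets differed in the opposite direction.

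Among the genes with the smallest p that were not called, Cyp8b1 and Acsf2 were the leading metabolic ones. Cyp8b1, the hydroxylase that directs bile acid synthesis towards cholic acid, had levels of 10.41, 10.80 and 11.08 in high arrays, against 9.81, 10.39 and 10.54 in low arrays, a fold of 1.42 (limma adjusted p = 0.0645). Acsf2, a mitochondrial acyl-CoA synthetase, was 1.27-fold higher (adjusted p = 0.0576). For both, all 10 high arrays lay above the low median, and with the score as a number both rose (adjusted p = 0.0129 for Cyp8b1 and 0.0036 for Acsf2). The other high-side genes were Efna5, an ephrin, at 1.41-fold, Pcp4, a calmodulin-binding peptide, at 1.37-fold, Golph3l, a Golgi protein, at 1.35-fold, Pgm3, an enzyme of amino sugar synthesis, at 1.19-fold, the sulfate transporter Slc26a1 at 1.17-fold and the RNA-binding protein gene Rbm27 at 1.14-fold. Both other probe sets of Rbm27 differed in the opposite direction. Golph3l and Slc26a1 rose with the score as a number (limma adjusted p = 0.0336 and 0.0150). The Efna5 difference ran from 0.078 to 0.54 log2 units over the settings of the closing section.

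On the low side, Id3, an inhibitor of helix-loop-helix factors, had levels of 7.97, 8.36 and 8.72 in high arrays, against 8.56, 9.01 and 9.20 in low arrays, a fold of 0.660 (limma adjusted p = 0.0567). Ptgs1, the cyclooxygenase expressed in platelets, macrophages and endothelium, stood at 0.710-fold, the MHC class I gene RT1-T24-4 at 0.751-fold and Trim34, of the tripartite motif family, at 0.766-fold. Cd300a, an inhibitory receptor of leukocytes, stood at 0.775-fold, Fermt3, the integrin activator of blood cells, at 0.817-fold, Fgd5, an exchange factor of endothelial cells, at 0.830-fold and Ostf1, an SH3 domain protein, at 0.889-fold. With the score as a number all of these fell except Trim34 (limma adjusted p between 0.0037 for Id3 and 0.0380 for Cd300a). In bulk liver RNA, fewer cells of a type and less RNA per cell cannot be told apart.

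Macrophage markers had the lowest median of the 32 gene lists. Of 21 listed Kupffer cell and macrophage genes 17 were measured, each by the brightest probe set, and all 17 lay above the lowest array median. In high arrays 16 were lower and 1 higher, with a median difference of -0.45 log2 units, or 0.732-fold, while over all 14217 genes 47.0% were lower and the median difference was 0.0049. All 16 had an unadjusted p under 0.05, against 6.15% of all genes for lower differences, but C1qb was the only one called after adjustment. With the score as a number 5 of 17 fell, against 0.324% of all genes. These were C1qb, C1qa, C1qc, Cd163 and Aif1.

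All 3 chains of C1q were among these 5. C1qa had levels of 8.63, 9.10 and 9.59 in high arrays, against 9.20, 9.65 and 9.89 in low arrays, a fold of 0.703. C1qc had 7.98, 8.35 and 8.85 in high arrays, against 8.57, 8.87 and 9.07 in low arrays, a fold of 0.720. For all 3 chains each of the 10 high arrays lay below the median of the low arrays, while the ranges overlapped. Cd163, the haptoglobin-haemoglobin scavenger receptor, had levels of 5.50, 6.09 and 6.54 in high arrays, against 6.27, 6.58 and 6.74 in low arrays, a fold of 0.731. Aif1, an actin-binding protein of macrophages, had 6.53, 6.82 and 7.46 in high arrays, against 6.97, 7.50 and 7.92 in low arrays, a fold of 0.643. A dimmer probe set of Aif1 differed by 0.05, so the 2 probe sets of this gene did not give the same picture. The dimmer one averaged 4.82 over all arrays, close to the lowest array median of 4.71, and the brighter one 7.23.

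Most other markers of Kupffer cells and macrophages lay in the same direction, and none of them passed the adjusted test. Clec4f, a lectin of Kupffer cells, had levels of 9.05, 9.44 and 10.10 in high arrays, against a range of 9.48 to 10.25 in low arrays, a fold of 0.732. Cd5l, a secreted protein of tissue macrophages, stood at 0.672-fold, the lysosomal protein gene Cd68 at 0.724-fold, Adgre1, an adhesion receptor of macrophages, at 0.737-fold and Csf1r, the receptor that sustains macrophages, at 0.785-fold. The exception was Lyz2, lysozyme, at 1.03-fold, with levels of 9.03, 10.03 and 10.54 in high arrays, against 9.44, 9.83 and 10.27 in low arrays. The mean level of the 17 genes was 7.79, 8.17 and 8.60 in high arrays, against 8.22, 8.56 and 8.85 in low arrays, and it was lower in high arrays in 5 of 5 dose groups, by 0.27 to 0.62 log2 units. Of the high arrays, 9 of 10 lay below the median of the low arrays. The exception was replicate 4 at 0.69 mg/kg, at 8.60, although its actin score was the third highest.

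In high arrays both the macrophage genes and the actin level at all 3 positions were lower. The arrays were chosen by the 3′ and 5′ actin values, and a relation between actin and macrophage levels over single arrays was not tested. The part of macrophage content in the actin score, and the part of RNA quality in the macrophage levels, was not tested. With classes formed from the GAPDH 3′ minus 5′ difference, the median of the macrophage list was -0.41 and all 17 members were lower. With classes from the middle minus the 5′ actin probe set, which shares the 5′ probe set with the score, it was -0.25.

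**Figure D3:**
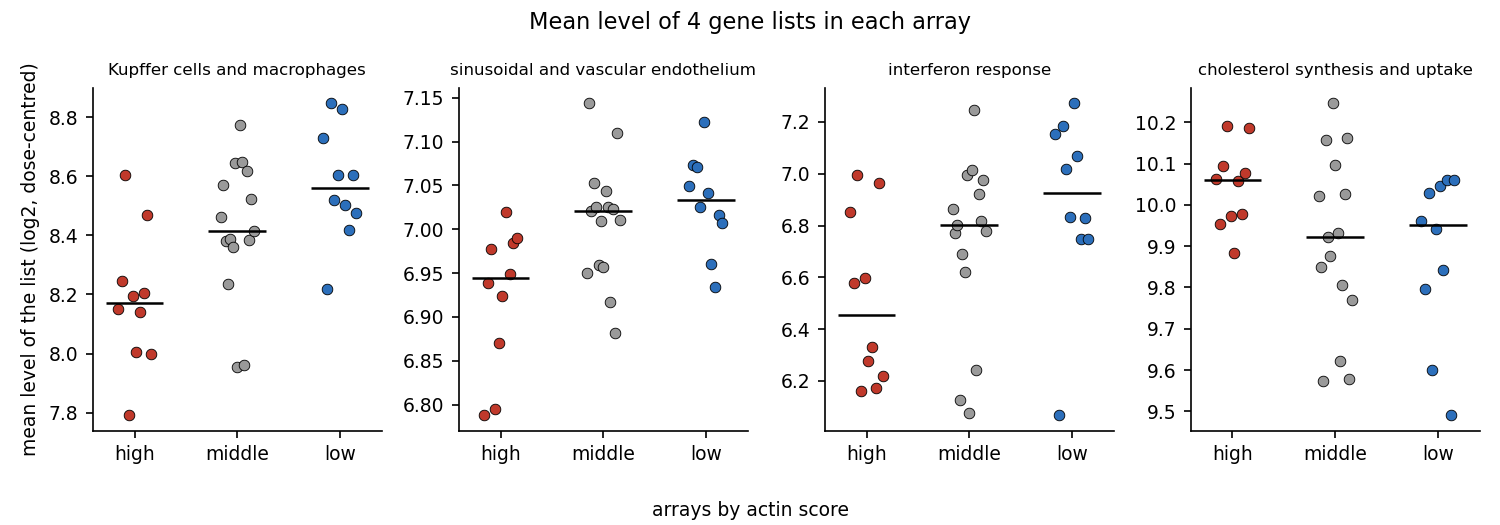
The mean dose-centred level (log2) of the macrophage, endothelium, interferon and cholesterol lists is drawn for each of the 10 high, 15 middle and 10 low actin arrays, with a line at the median of each class. The macrophage medians are 8.17 in high, 8.42 in middle and 8.56 in low arrays, and in all 4 lists the classes overlap.

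The promoters of 2 macrophage genes are shown because their transcripts fell with the score and because 1 sequence element recurs in this list. They hold 300 bases around the start of the gene, in the direction of transcription, from RefSeq on assembly GRCr8. Capitals mark AGGAAG or its reverse complement CTTCCT, the letters at the core of many binding sites of the macrophage factor PU.1.
C1qb, chr5:154407778-154408077, minus strand: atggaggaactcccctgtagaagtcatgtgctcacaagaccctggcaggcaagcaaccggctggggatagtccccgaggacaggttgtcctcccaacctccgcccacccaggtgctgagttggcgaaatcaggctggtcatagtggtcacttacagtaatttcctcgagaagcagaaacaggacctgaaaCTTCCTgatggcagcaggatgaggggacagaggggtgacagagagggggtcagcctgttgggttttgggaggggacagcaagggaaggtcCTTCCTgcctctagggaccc
Cd163, chr4:158770524-158770823, plus strand: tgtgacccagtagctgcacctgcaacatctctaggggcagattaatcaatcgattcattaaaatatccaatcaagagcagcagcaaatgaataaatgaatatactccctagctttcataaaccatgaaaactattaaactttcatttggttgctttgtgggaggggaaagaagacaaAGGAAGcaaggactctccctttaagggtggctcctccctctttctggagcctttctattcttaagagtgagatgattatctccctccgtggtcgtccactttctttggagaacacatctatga
C1qb held 2 matches, both as CTTCCT, and Cd163 held 1. Of the 13 promoters of the macrophage list in the RefSeq table, 10 held AGGAAG on either strand (76.9%), against 34.3% of all 27457 promoters of the same length. C1qa, which had no match in its window, differed by about as much as C1qb. Lyz2, which was not lower in high arrays, was among the 10 with a match. The other motif searched, TCACNCCAC on either strand, a form of the sterol regulatory element, was in 0 of 15 promoters of the cholesterol list, against 1.13% of all promoters. A match is a description of the sequence and shows no binding, and no match says only that these letters are not in the window.

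Endothelial markers had a smaller median difference. Of 16 measured genes of sinusoidal and vascular endothelium 11 were lower and 5 higher in high arrays, with a median of -0.11 log2 units. None was called, and 8 were lower at an unadjusted p under 0.05, against 6.15% of all genes. With classes formed from GAPDH the median was -0.03, with 13 lower and 3 higher. With the score as a number 2 members fell, against 0.324% of all genes. Emcn, a sialomucin of venous and capillary endothelium, and Lyve1, the hyaluronan receptor of sinusoidal endothelium, were these 2 (limma adjusted p = 0.0383 and 0.0408). Lyve1 had levels of 9.13, 9.34 and 9.47 in high arrays, against 9.38, 9.52 and 9.68 in low arrays, a fold of 0.873, and Emcn stood at 0.816-fold. The receptor genes Tek and Kdr stood at 0.854-fold and 0.881-fold, Fcgr2b at 0.798-fold and Stab1 at 0.856-fold. The pan-endothelial Pecam1 and Tie1, both at 1.01-fold, and Vwf, at 1.06-fold, were not lower. The mean level of the list was below the low median in 10 of 10 high arrays, but it was lower in high arrays in only 3 of 5 dose groups.

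Of 22 measured interferon response genes 21 were lower in high arrays, against 47.0% of all genes, with a median of -0.35 log2 units, and 12 were lower at an unadjusted p under 0.05, against 6.15% of all genes. None was called, and none fell with the score as a number. Isg15, a ubiquitin-like protein, had levels of 5.63, 5.97 and 6.70 in high arrays, against 5.98, 6.81 and 7.24 in low arrays, a fold of 0.626 (limma adjusted p = 0.192). The antiviral GTPase genes Mx1 and Mx2 stood at 0.612-fold and 0.573-fold and the oligoadenylate synthetase gene Oas1a at 0.597-fold, each with wide ranges. The list mean was 6.16, 6.45 and 7.00 in high arrays, against 6.07, 6.93 and 7.27 in low arrays. Replicate 3 at 0.07 mg/kg was the lowest array of all in the low class, so the ranges overlapped fully on that side, and high arrays were lower in 4 of 5 dose groups. Without that array the median of the list was -0.47.

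Of 19 measured lymphocyte and NK cell genes, 8 lay above the lowest array median. In high arrays 13 of the 19 were lower, against 47.0% of all genes, with a median of -0.12. At an unadjusted p under 0.05, 6 were lower, against 6.15% of all genes. Cd74, the invariant chain of MHC class II, which macrophages and dendritic cells also express, had levels of 8.28, 8.67 and 9.20 in high arrays, against 8.43, 9.23 and 10.06 in low arrays, a fold of 0.657 (limma adjusted p = 0.212). The neutrophil list had 3 genes higher and 4 lower, with only 2 of 7 above the lowest array median, and the blood list 5 higher and 2 lower, with Hbb at 1.01-fold. Stellate cell and fibroblast genes had 7 of 20 higher and a median of -0.05, and cholangiocyte genes 8 of 10 higher and a median of 0.06. Mesothelial genes, 8 measured, had a median of -0.12. None of these genes was called.

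Hepatocyte markers had medians close to 0. The 19 general hepatocyte genes, all above the lowest array median, had 8 higher and 11 lower and a median of -0.0033 log2 units. Their mean level was 12.89, 12.94 and 12.96 in high arrays, against 12.93, 12.95 and 12.99 in low arrays. Periportal genes had a median of 0.0020, with 8 of 16 higher. Pericentral genes had a median of -0.0067, with 4 of 14 higher, while the mean of the list was higher in high arrays by 0.07, through Cyp7a1 and Tbx3. Cyp7a1, the rate-limiting enzyme of bile acid synthesis, had levels of 10.16, 11.15 and 11.75 in high arrays, against 9.29, 10.14 and 11.08 in low arrays, a fold of 1.87 that was not called (limma adjusted p = 0.192). Tbx3, a transcription factor of pericentral hepatocytes, stood at 1.33-fold. Exocrine pancreas genes were included as a check of tissue purity, and 2 of 16 lay above the lowest array median.

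Genes of cholesterol synthesis and uptake lay on the other side. Of 19 measured genes 17 were higher and 2 lower in high arrays, with a median difference of 0.19 log2 units, or 1.14-fold, against 53.0% higher among all genes. At an unadjusted p under 0.05 there were 9, against 4.57% of all genes for higher differences, and none was called. Lss, which forms lanosterol, had levels of 9.14, 9.51 and 9.65 in high arrays, against 8.30, 9.23 and 9.43 in low arrays, a fold of 1.26 (limma adjusted p = 0.318). Sqle, squalene epoxidase, stood at 1.24-fold, Dhcr7 and Idi1, reductase and isomerase of the pathway, both at 1.22-fold, and Cyp51, the lanosterol demethylase, at 1.17-fold. The 2 lower genes were Insig1, which holds the sterol sensor in the endoplasmic reticulum, at 0.957-fold, and the sterol carrier gene Stard4, at 0.885-fold. The list mean was 9.88, 10.06 and 10.19 in high arrays, against 9.49, 9.95 and 10.06 in low arrays, and it was higher in 4 of 5 dose groups.

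**Figure D4:**
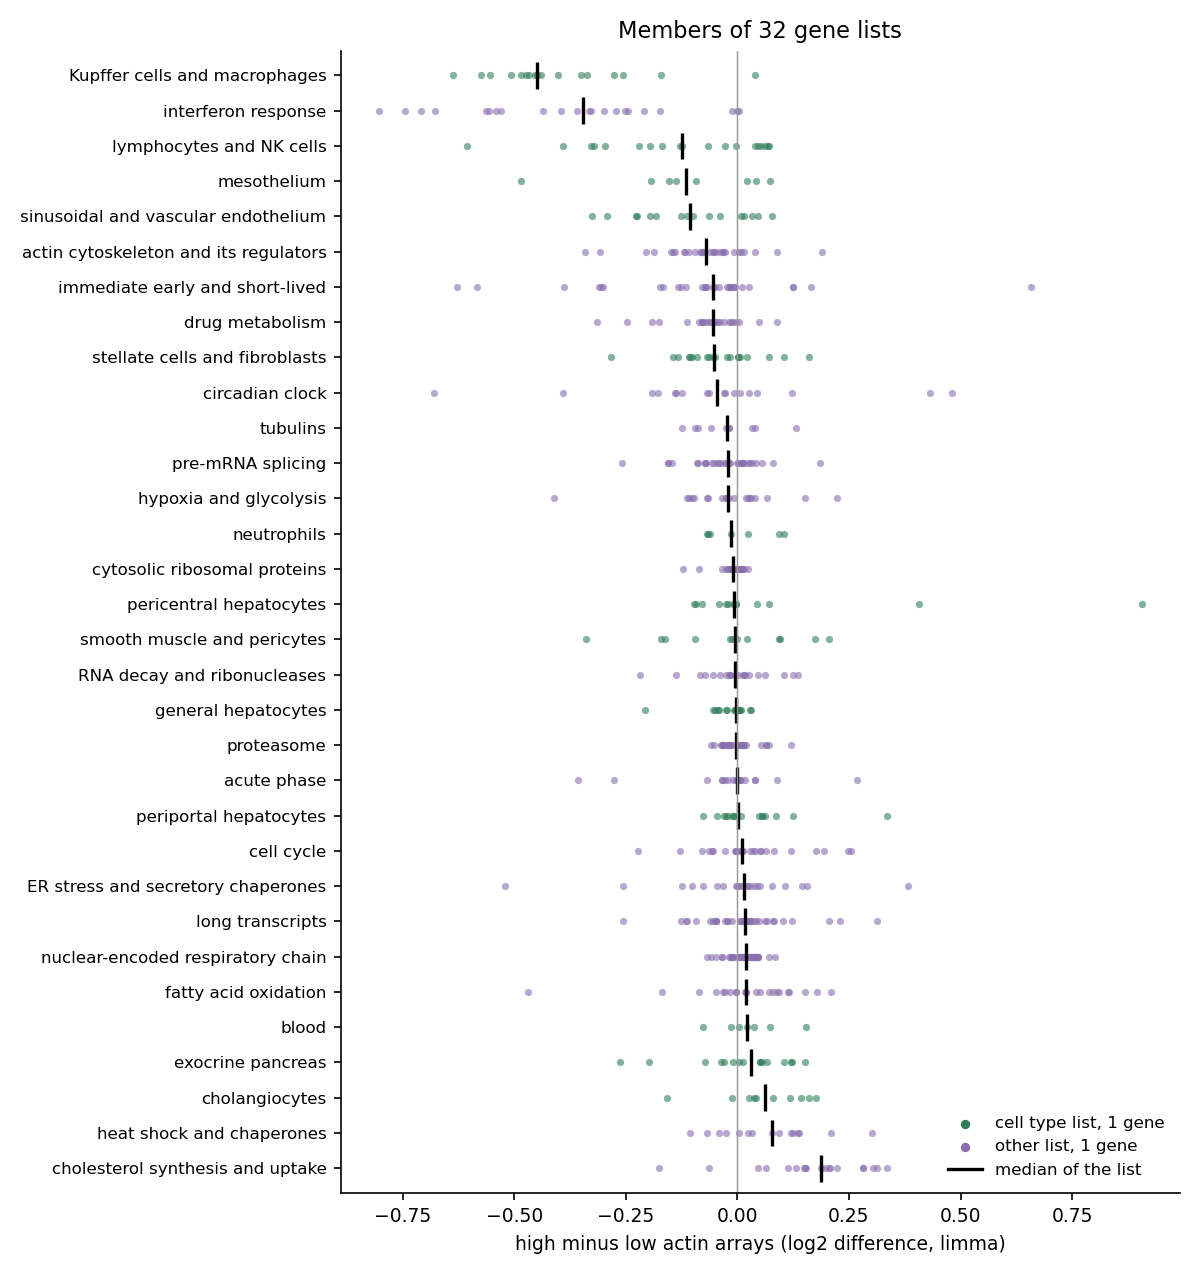
Each point is the difference of 1 gene between high and low actin arrays (log2, horizontal axis, limma), and each black line the median of its list, for 13 cell type lists and 19 other lists. The macrophage median of -0.45 and the interferon median of -0.35 lie farthest to the left and the cholesterol median of 0.19 farthest to the right.

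Other groups differed by smaller amounts, with no call in any of them. Of 30 actin cytoskeleton genes 24 were lower and 6 higher, against 47.0% lower among all genes, with a median of -0.07. At an unadjusted p under 0.05, 10 were lower and 1 higher, against 6.15% and 4.57% of all genes. The mean of the list was lower in high arrays in 5 of 5 dose groups. Ezr, which links actin to the membrane, stood at 0.789-fold, Msn at 0.868-fold and Actn1 at 0.878-fold. Of 24 drug metabolism genes 21 were lower, against 47.0% of all genes, with a median of -0.06, but with classes formed from GAPDH 13 were lower and 11 higher, with a median of -0.016. In the actin classes Nqo1 stood at 0.804-fold and Gstp1 at 0.885-fold. Of 15 heat shock genes 11 were higher, against 53.0% of all genes, with a median of 0.08. When single arrays were left out, this median ran from 0.035, without replicate 5 at 0.69 mg/kg, to 0.11. With classes formed from GAPDH the direction turned, with 7 higher, 8 lower and a median of -0.0062. Among them Bag3, a partner of the chaperone HSP70, rose with the score as a number (limma adjusted p = 0.0428, against 0.0492% of all genes called higher there), with levels of 7.84, 7.99 and 8.17 in high arrays, against 7.40, 7.71 and 7.89 in low arrays. Of 31 immediate early and short-lived transcripts 25 were lower, against 47.0% of all genes, with a median of -0.06. Of these, 2 were lower at an unadjusted p under 0.05, against 6.15% of all genes.

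Very long transcripts formed a list of their own. Of 36 measured, 22 were higher and 14 lower, with a median of 0.016, and at an unadjusted p under 0.05 there were 3 higher and 2 lower, against 4.57% higher and 6.15% lower among all genes. Probe sets of a 3′ array lie mostly near the 3′ end, and their positions along the transcripts are not used here. Abundant short transcripts gave medians close to 0, with 0.020 for 44 respiratory chain genes and -0.0095 for 23 ribosomal protein genes. Of 18 circadian clock genes 12 were lower and 6 higher, against 47.0% lower among all genes. The clock repressor genes Nr1d1 and Nr1d2 stood at 1.40-fold and 1.35-fold and Cry1 at 0.763-fold.

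Where 2 probe sets read the same transcripts of a gene, their difference does not depend on how much of its RNA was present, except through unequal response. Whether the 2 probe sets of a gene read the same transcripts was not tested. For 2331 genes with 2 probe sets above the lowest array median, the difference between the brightest and the next was fitted like a level. The test called 37 genes (1.59%), and 425 had an unadjusted p under 0.05 (18.2%). In 22 of the 37 the brighter probe set was relatively higher in high arrays and in 15 relatively lower. Over all 2331 genes it was relatively higher in 1301. In 25 of the 37 the 2 probe sets differed between the classes in opposite directions, which choosing genes by that difference favours. The share with opposite directions over all 2331 genes is not given here. Ppp2r1a, the scaffold subunit of protein phosphatase 2A, had a difference between its probe sets of 1.12, 1.27 and 1.35 in high arrays, against 0.91, 0.97 and 1.15 in low arrays. Its brighter probe set differed by 0.07 between the classes and its dimmer one by -0.18 (limma adjusted p = 0.0057 for the difference). For Gcdh, the glutaryl-CoA dehydrogenase, the classes did not overlap, with 1.78, 1.84 and 1.99 in high arrays, against 1.53, 1.67 and 1.73 in low arrays (adjusted p = 0.0189). Babam2 and Aif1, described above, were also among the 37, so their differences between high and low arrays depend on the probe set read. For Aif1 the dimmer probe set lay close to the lowest array median.

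**Figure D5:**
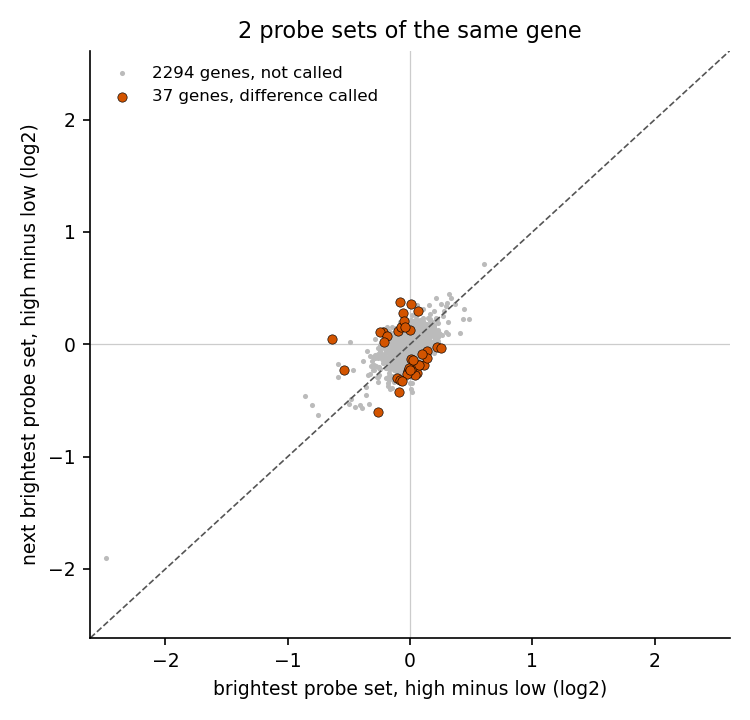
For 2331 genes, the high minus low difference (log2) of the brightest probe set is plotted against that of the next brightest, with a dashed line where both are equal and the 37 genes whose probe sets differed coloured. Most genes lie near the centre, and 1 gene, Ugt2b, lies far to the lower left at -2.49 and -1.90.

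Adding the score to the model of the dose groups left the comparison of each dose with vehicle at 0 called probe sets of 31042 (0.0%) at all 5 doses, as without it. At an unadjusted p under 0.05 the numbers with the score were 1041 at 0.07, 1041 at 0.69, 1476 at 6.88, 1275 at 68 and 1675 at 680 mg/kg, against 1130, 981, 1438, 1205 and 1538 without the score in the same order of doses. The median residual SD was 0.143 with the score and 0.144 without it.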

How the data were processed

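RMA and the affy package are named in the submitters' processing notes, without versions. The values that the authors deposited were taken as log2 RMA levels of probe sets, the base following RMA's convention, with a range of 1.45 to 14.44 and medians per array of 4.71 to 4.79. Because RMA makes the distributions of the arrays alike, a shift common to most transcripts would be reduced. Precision is set by how many arrays each class holds.

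Of 31099 probe sets 57 controls were left out of the test across probe sets, and 31042 were tested without a filter. The platform annotation gave 20826 probe sets 1 symbol, 436 several and 9780 none, and 20764 of the first kind matched RefSeq identifiers of GRCr8. Each of 14217 genes was represented by its brightest probe set in the lists, where 646 of 753 entries of 32 lists were measured. A called probe set is reported itself, also where another one of its gene was brighter.

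High, middle and low arrays were coded as 3 classes beside the dose groups, fitted to all 35 arrays with limma 3.58.1 in R 4.3.3, and high was contrasted with low. A fold is 2 to the power of that log2 difference. Control pairs were tested on dose-centred values by permutation with 100000 resamples in scipy 1.17.1. The fit was tested on simulated data. The members and gene lists were chosen with earlier results of these data known. Named genes were all called ones, filled up to 10 per direction by the smallest p among genes at or above the lowest array median, and up to 4 members per list by the smallest p where the list is described. List members called with the score as a number were added after the data had been seen, as were the fits of 2 probe sets of a gene, the 5S rRNA relation, the dose fits with the score and the list medians under other settings. The effect of other settings is given in the closing section. Same-numbered arrays of different dose groups did not deviate together (median correlation -0.02 over 85 pairs), so the numbers were not used as pairs.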

Additional observations from a re-analysis of the deposited data

Results flagged for a closer look

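Of 134 sets of values compared with Dixon's limit, 3 held an array far from the others of its class, and chance alone flags about 1 set in 20. Among the low actin arrays, the mean of the mesothelium list was 7.05 in replicate 4 at 6.88 mg/kg, with the nearest other array at 6.78. The mean of the tubulin list was 7.43 in vehicle replicate 2, with the nearest other low array at 7.26. The mean of the interferon list was 6.07 in replicate 3 at 0.07 mg/kg, with the nearest other low array at 6.75.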

How the results depend on the processing

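The GAPDH difference kept its direction and passed the test under every setting tried for it (0.062 to 0.083 log2 units, permutation test, adjusted p between 0.0006 and 0.0062), while the hexokinase difference changed sign with the 8 highest against the 8 lowest arrays (-0.025). The counts of probe sets called higher and lower by limma, 1 and 3 as reported, varied widely. They were 15 and 93 with the score as a number, 0 and 11 with 8 against 8 arrays, 25 and 37 with 12 against 12, 29 and 69 when the deviations of the 20 arrays were tested without a dose term, 8 and 31 when only probe sets at or above the lowest array median were kept, 2 and 11 with an intensity trend and robust prior, 17 and 48 with array weights and 1 and 8 with 1 probe set per gene. Repeated quantile normalisation gave 1 and 2, and centring on array medians 1 and 4. With the replicate number as a block they were 4 and 22, though the numbers do not pair the arrays. Classes by GAPDH gave 0 and 0, with 4184 at an unadjusted p under 0.05, and classes by the middle and 5′ actin probe sets 0 and 0, with 2746. Leaving out a dose group gave 0 and 2 without vehicle, 0 and 0 without 0.07 mg/kg, 0 and 0 without 0.69 mg/kg, 1 and 0 without 6.88 mg/kg, 5 and 27 without 68 mg/kg and 2 and 1 without 680 mg/kg. Leaving out each of the 20 arrays in turn gave 0 to 8 higher and 0 to 58 lower, with all 4 calls kept in 7 of 20 fits, 0 and 0 without replicate 1 at 0.69 mg/kg or replicate 4 at 6.88 mg/kg, and 58 lower without vehicle replicate 1. The causes of these changes were not tested. No called gene and no gene filled up by the smallest p changed sign in any setting. Some other named list members did. With classes by GAPDH all 17 macrophage genes were lower, Lyz2 among them. With the same classes all 19 cholesterol genes were higher, Insig1 and Stard4 among them. Among settings and lists added after the data had been seen, the macrophage median stayed between -0.52 and -0.25, the interferon median between -0.51 and -0.22 and the cholesterol median between 0.10 and 0.23. The lymphocyte median was -0.31 without dim probe sets, and with classes by GAPDH the heat shock median was -0.0062, the endothelial one -0.03 and the drug metabolism one -0.016.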

Other observations

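The largest differences over all probe sets belonged to Ugt2b, a glucuronosyltransferase gene of steroid and drug conjugation, which was picked here after its values had been seen. Its brightest probe set split the 35 arrays into 3 with deposited levels between 4.34 and 4.97 and 32 with levels between 12.24 and 12.84. A dimmer probe set split the same arrays, with 2.27 to 2.85 in the 3 and 8.23 to 9.58 in the 32. The 3 arrays were vehicle replicate 3, replicate 5 at 0.69 mg/kg and replicate 2 at 6.88 mg/kg. All 3 were high actin arrays, none was a middle or a low one, and the differences of -2.49 and -1.90 log2 units were not called (limma adjusted p = 0.276 and 0.366).

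Bcl6, a transcriptional repressor of liver and lymphoid cells, also picked after its values had been seen, had dose-centred levels of 7.60, 8.68 and 9.84 (lowest, median and highest) in high arrays, against 5.20, 6.49 and 8.99 in low arrays. Its difference of 1.71 log2 units was not called (limma adjusted p = 0.306), and the levels of the middle arrays, from 4.67 to 10.95, reached beyond both classes.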
